A study of Bos taurus with 2 samples.

Results

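The genes TUBB3, STMN2, DCX, ELAVL3, ELAVL4 and MLLT11, widely used to mark neurons of any subtype, were followed through the cells of day 25 bovine embryos. These 6 genes, of 17846 in the deposited counts, were given by name, and all 6 were present and passed the filter on low counts. The embryos were flushed at day 25 and were chimeras, with bovine embryonic stem cells incorporated, and there was no group of other embryos. They were dissociated with papain, sorted (the gate is not given), and profiled as single cells on the 10x Genomics 3′ v3.1 platform. One group of 2 libraries, replicate 1 and replicate 2, was measured, and the labels do not say whether they came from different embryos.

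A postmitotic neuron builds a microtubule cytoskeleton for its axon and dendrites and changes how its RNAs are spliced, stabilised and translated. TUBB3 encodes a neuronal beta-tubulin, DCX a protein that binds and stabilises microtubules in migrating neurons, and STMN2 a stathmin that binds tubulin dimers in growth cones. ELAVL3 and ELAVL4 encode neuronal Hu proteins, which bind AU-rich and U-rich stretches of RNA, and MLLT11 encodes a small protein abundant in developing neurons. All belong to the genes commonly switched on as progenitors leave the cell cycle, and none defines a neuronal subtype.

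The tables gave 1973 barcodes for replicate 1 and 2464 for replicate 2. A UMI, or unique molecular identifier, tags 1 captured RNA molecule, and the totals were 11182089 and 15427708 UMI. After filters 1842 and 2310 cells were analysed, with 6 barcode sequences shared between the libraries. Cells were grouped without using the 6 members, and clusters were named from marker lists. Neural progenitor-like cells numbered 957 and 1048, newborn neuron-like cells 36 and 59, ONECUT and EBF neuron-like cells 153 and 162, and noradrenergic neuron-like cells 76 and 85. The newborn neuron-like class carried DLL3 and HES6 and also ONECUT and EBF markers, whose summed level was 3763 and 2806 CPM there and 3184 and 3543 CPM in the ONECUT and EBF class. CPM is the UMI count of a gene scaled to a common total for the summed cells, and ± marks the SD between the 2 libraries. Noradrenergic neuron-like cells carried HAND2 among their markers. Clusters 14 and 21 came almost wholly from 1 library and entered no comparison.

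All 6 genes stood far higher in neurons than in neural progenitor-like cells, in both libraries. Because the genes were picked as neuronal, this is a description of size. TUBB3 was 42.9 CPM in replicate 1 and 51.0 CPM in replicate 2 in progenitors, against 570 and 829 CPM in the 3 neuron classes together. STMN2 was 86.5 and 89.0 CPM in progenitors and 2207 and 3002 CPM in neurons. DCX was 63.0 and 53.2 CPM in progenitors and 538 and 551 CPM in neurons. For these cytoskeletal genes no library of one class overlapped any library of the other.

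ELAVL3 was 109 and 103 CPM in progenitors and 362 and 426 CPM in neurons. ELAVL4 was 27.5 and 29.4 CPM in progenitors and 484 and 593 CPM in neurons. MLLT11 was 28.1 and 26.4 CPM in progenitors and 484 and 648 CPM in neurons. The fitted log2 differences ranged from 2.62 (SE 0.0863) for ELAVL3 to 5.22 (SE 0.103) for STMN2, with the 3 neuron classes weighted equally. All 6 were called higher by edgeR (quasi-likelihood test, Benjamini-Hochberg adjusted over 11543 genes), a direction called for 32.5% of all genes tested.

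**Figure D1:**
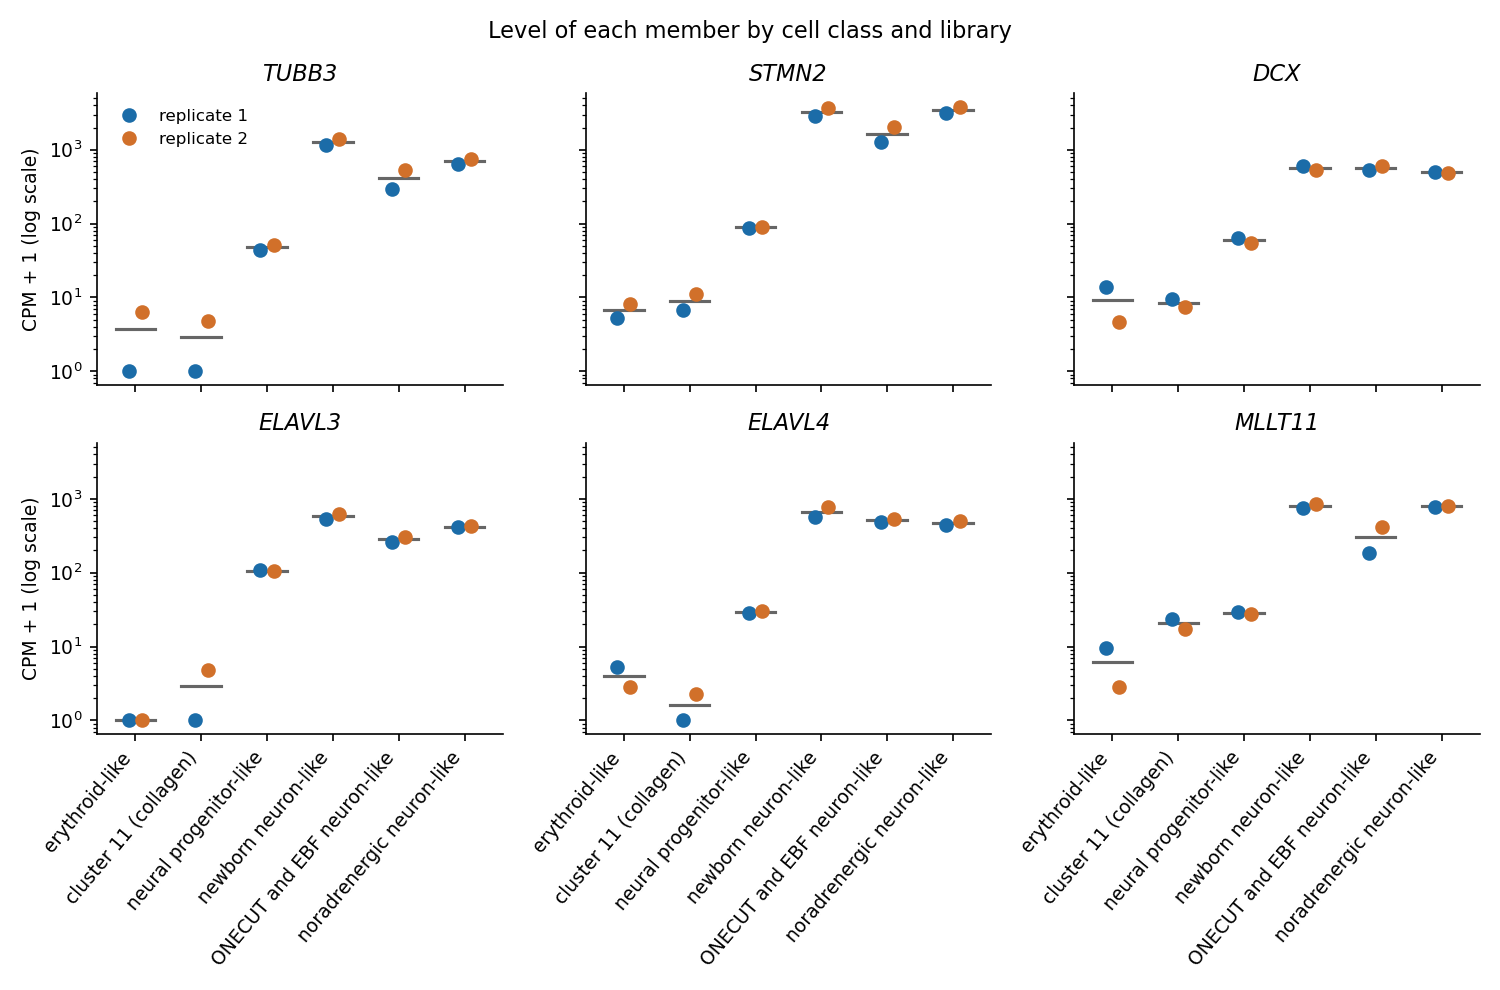
Level of each member (y axis, CPM + 1 on a log scale) in 6 cell classes (x axis), with 1 point per library and a bar at the mean. Progenitors lie between the non-neural cells and the neurons for most members, MLLT11 is near cluster 11 in progenitors, DCX varies little across the 3 neuron classes, ELAVL4 is highest in newborn cells, and TUBB3, STMN2, ELAVL3 and MLLT11 dip in the ONECUT and EBF class.

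For most members progenitors were above erythroid-like cells and cluster 11. In erythroid-like cells TUBB3 was 0 and 5.38 CPM, and in cluster 11, led by the collagens COL1A1, COL3A1 and COL1A2, it was 0 and 3.81 CPM. ELAVL3 had no UMI in erythroid-like cells of either library. MLLT11 differed from the others, since it was 22.7 and 16.5 CPM in cluster 11, near its progenitor level. In cluster 15 STMN2 was 43.2 and 103.7 CPM, a range that spans its progenitor level. With each cell thinned to 2000 UMI, ELAVL3 had a UMI in 16.5% of 846 progenitor cells of replicate 1 (Clopper-Pearson 95% interval 14.1 to 19.2) and in 15.2% of 901 cells of replicate 2 (12.9 to 17.7). The same gene was seen in 0 of 33 and 0 of 64 cells of cluster 11, where the upper limits of the intervals were 10.6% and 5.60%. Thinning left out 111 and 147 shallower progenitor cells. Before thinning the progenitor shares were 30.7% and 29.4%, at median depths of 4618 and 4385 UMI, and the cluster 11 medians were 11773 and 12104 UMI.

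Among the 7 progenitor clusters the members did not move together. TUBB3 and DCX differed at their low ends: TUBB3 was lowest in cluster 10, at 15.4 ± 1.53 CPM (n = 2), where DCX was highest, at 130 ± 10.3 CPM. DCX was lowest in cluster 7, at 22.3 ± 3.95 CPM, where TUBB3 was 61.8 ± 11.4 CPM. Cluster 10 was also where ELAVL4 was highest, at 57.2 ± 0.151 CPM. ELAVL3 ranged from 24.3 ± 5.49 CPM in cluster 12 to 193 ± 6.32 CPM in cluster 0. Cluster 5 was led by PAX3, ERBB4 and HES5. It held the highest mean TUBB3, STMN2 and MLLT11, at 66.6 ± 8.19, 186.5 ± 16.3 and 44.1 ± 1.88 CPM. For TUBB3 its libraries, at 60.8 and 72.3 CPM, overlapped those of cluster 7, at 69.9 and 53.8 CPM. DCX in cluster 5 was 69.8 and 57.2 CPM, above its median of 46.2 CPM over the 7 clusters. Ribosomal protein genes took 13.4% and 15.0% of the UMI in cluster 5 and 3.25% and 3.81% in cluster 10. Other clusters did not follow that order. Cluster 18, at 17.2% and 21.2%, held TUBB3 at 9.61 and 60.4 CPM and MLLT11 at 19.2 and 10.1 CPM. Cluster 0, at 3.79% and 3.26%, held TUBB3 at 57.8 and 56.0 CPM and MLLT11 at 33.5 and 33.3 CPM. The part of the ribosomal protein share in these differences was not tested.

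Progenitor cells with newborn markers were compared with those without. Of thinned progenitor cells with a UMI of at least 2 newborn neuron markers, 3.70% of 108 and 6.30% of 127 had a UMI of 3 or more members. Of those with no such marker it was 1.598% of 438 and 0.237% of 422. TUBB3 was found in 8.33% and 15.0% of the first cells and in 7.31% and 8.06% of the second, so its gap was seen mainly in replicate 2. These shares rest on 4 and 8 cells with 3 or more members against 7 and 1, and no test over cells was made. Cells with at least 2 mitosis markers gave similar shares to those with none: 1.44% and 2.02% against 2.39% and 1.80% had 3 or more members.

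The newborn neuron-like class was compared with progenitors to ask which members are already high when newborn markers are on. TUBB3 was 1169 and 1388 CPM in newborn cells, its highest level in any class. STMN2 was 2830 and 3667 CPM, DCX 608 and 538 CPM and MLLT11 749 and 842 CPM. ELAVL3 was 533 and 621 CPM and ELAVL4 564 and 774 CPM. The log2 differences from progenitors were 5.37 for TUBB3 (SE 0.125), 5.56 for STMN2 (SE 0.125), 3.78 for DCX (SE 0.128), 3.18 for ELAVL3 (SE 0.123), 5.00 for ELAVL4 (SE 0.143) and 5.40 for MLLT11 (SE 0.178). All 6 were called higher, against 26.2% of all genes, and as before this direction follows from how the genes were picked. No member was still at its progenitor level in this class.

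Between newborn and ONECUT and EBF neuron-like cells the members split. TUBB3 was 291 and 530 CPM in the ONECUT and EBF class, below both newborn libraries. Its fitted log2 difference was -1.75 (SE 0.142, edgeR adjusted p = 2.48e-15). MLLT11 was 184 and 417 CPM, a log2 difference of -1.51 (SE 0.183, edgeR adjusted p = 5.74e-08). STMN2 was 1289 and 2028 CPM, and its log2 difference was -1.08 (SE 0.190, edgeR adjusted p = 4.75e-06).

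The RNA-binding pair differed from each other. ELAVL3 fell to 258 and 304 CPM, a log2 difference of -1.16 (SE 0.141, edgeR adjusted p = 3.16e-10). ELAVL4 was 484 and 538 CPM, a log2 difference of -0.50 (SE 0.140, edgeR adjusted p = 0.00367). DCX was 538 and 606 CPM against 608 and 538 CPM, so the libraries overlapped, and its log2 difference of -0.10 (SE 0.131) was not called (edgeR adjusted p = 0.620). In all 5 of 6 members were lower, against 13.7% of all genes called lower. In replicate 1 alone the ELAVL4 difference was -0.26. With classes set by marker UMI in each cell in place of clusters, 0 members were lower and DCX was higher. Of the 134 newborn cells set that way, 37 were also in the newborn class made from clusters.

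Noradrenergic neuron-like cells, which express the transcription factors of sympathetic neurons, were above the ONECUT and EBF class for 4 of the 5 members that had been lower there than in newborn cells. TUBB3 was 646 and 749 CPM, a log2 difference of 0.84 (SE 0.145, edgeR adjusted p = 3.89e-06). STMN2 was 3174 and 3823 CPM, a log2 difference of 1.15 (SE 0.190, edgeR adjusted p = 1.14e-06). MLLT11 was 767 and 808 CPM, the largest difference of the 6, at 1.46 (SE 0.177, edgeR adjusted p = 6.18e-08). In each case both noradrenergic libraries lay above both ONECUT and EBF libraries. ELAVL3 was 420 and 422 CPM, a log2 difference of 0.64 (SE 0.140, edgeR adjusted p = 0.000187).

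DCX, at 499 and 483 CPM, and ELAVL4, at 441 and 505 CPM, were not called between these classes. Their log2 differences were -0.17 (SE 0.127, edgeR adjusted p = 0.317) and -0.06 (SE 0.140, edgeR adjusted p = 0.804). The 4 calls of 6 stand against 15.8% of all genes called higher. With limma-trend 2 members were called higher, and with classes set by marker UMI 0 were higher and 2 lower. Both comparisons use the ONECUT and EBF sums, so their opposite signs are not independent. Across the classes the order for TUBB3 and for ELAVL3 was newborn, noradrenergic, then ONECUT and EBF, with no overlap between neighbours. For STMN2 and MLLT11 the newborn and noradrenergic libraries overlapped, and for DCX the newborn and ONECUT and EBF libraries did. For ELAVL4 the ONECUT and EBF and noradrenergic libraries overlapped.

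These differences between classes moved with the share of UMI taken by ribosomal protein genes. That share was 14.02% and 15.9% in newborn cells, 9.01% and 10.7% in noradrenergic cells, and 3.28% and 5.28% in the ONECUT and EBF class. Of the 4 ONECUT and EBF subclusters, 4a, 4b and 4f were at 1.24 to 2.46%, while 4d, with DCDC1 and EPHA6 among its leading genes, was at 8.97% and 10.96%. In subcluster 4d TUBB3 was 878 and 1040 CPM and MLLT11 604 and 912 CPM. In subcluster 4f TUBB3 was 87.5 and 130 CPM and MLLT11 61.7 and 74.3 CPM. DCX was 477 and 541 CPM in 4d and 602 and 669 CPM in 4f, so the subcluster with the lower TUBB3 did not have the lower DCX.

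With 4d as the sole ONECUT and EBF subcluster, an alternative added after the data had been seen, none of the 6 members was called against noradrenergic cells by edgeR, where 5.72% of all genes were called in either direction. The log2 difference of MLLT11 was then 0.04 (edgeR adjusted p = 0.959), that of STMN2 0.06 (edgeR adjusted p = 0.946) and that of TUBB3 -0.43 (edgeR adjusted p = 0.0529), against the direction of the whole class. Against newborn cells 2 of 6 were still lower, with a background of 5.68%: TUBB3 at -0.53 (edgeR adjusted p = 0.00883) and ELAVL3 at -0.73 (edgeR adjusted p = 0.00167). The part of the ribosomal protein share itself in these differences was not tested.

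**Figure D2:**
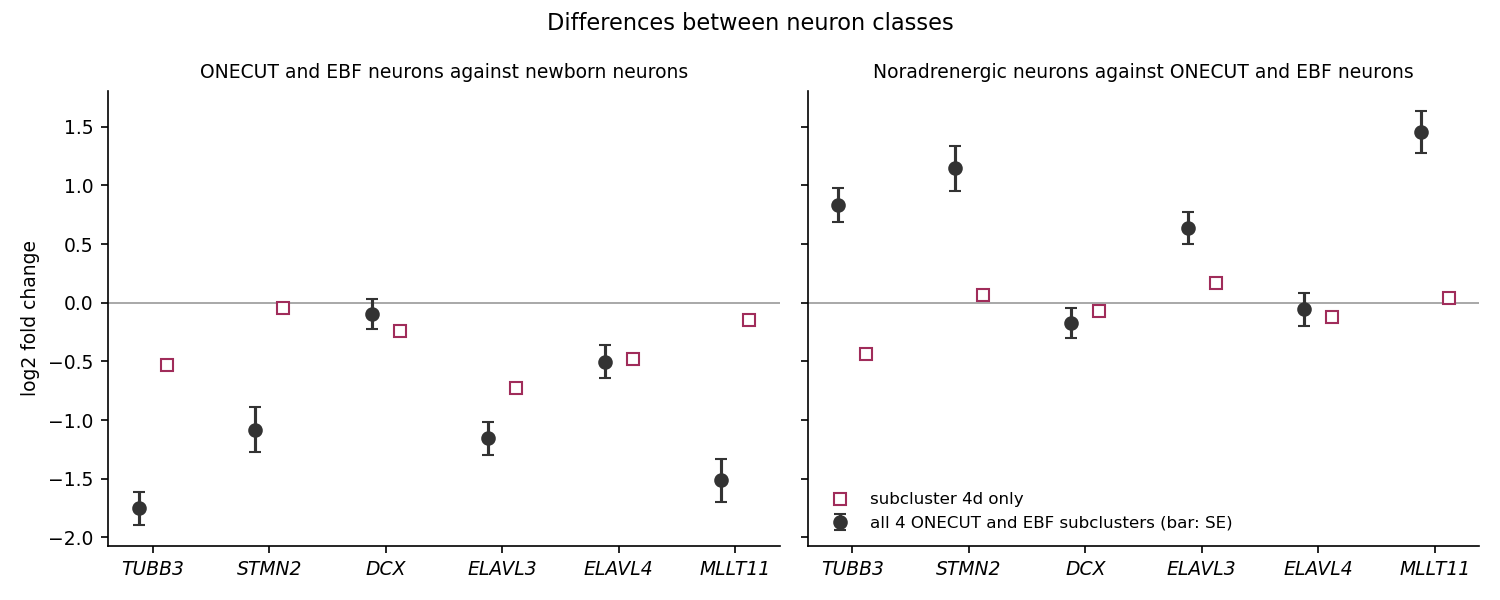
Log2 fold change of each member (y axis) between neuron classes, with filled points for the whole ONECUT and EBF class (bar: SE) and open squares for subcluster 4d alone. In the right panel the squares of STMN2 and MLLT11 lie at 0.06 and 0.04, and the filled points of DCX and ELAVL4 at -0.17 and -0.06. In the left panel the filled points of DCX and ELAVL4 lie at -0.10 and -0.50.

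To follow this within a class, the cells of each neuron class were divided at the median ribosomal protein share of their library. This split was chosen after the pattern of these genes across the ONECUT and EBF subclusters had been seen, so in that class its values are a description and no p is given. Subcluster 4d made up 26 of 77 and 42 of 81 cells of the rich fraction there and 3 of 76 and 3 of 81 of the poor, so the fractions also differ in subcluster. The ribosomal-poor fraction of the ONECUT and EBF class took 1.10% of its UMI from ribosomal protein genes in both libraries, and the rich fraction 6.32% and 8.84%. Median depth did not order the fractions, at 5540 and 4222 UMI in the poor fraction and 3268 and 5428 UMI in the rich fraction. Mitochondrial genes took 0.272% and 0.368% of UMI in the poor fraction and 0.410% and 0.275% in the rich fraction.

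MLLT11 was 50.6 and 48.2 CPM in the poor fraction and 371 and 731 CPM in the rich fraction, a log2 difference of -3.52 (SE 0.339). TUBB3 was 99.0 and 117 CPM against 559 and 882 CPM, a log2 difference of -2.78 (SE 0.233). STMN2 was 743 and 760.5 CPM against 2050.4 and 3107 CPM, a log2 difference of -1.80 (SE 0.222). In all 3 the fractions were separate in both libraries. ELAVL3 was 219.9 and 180.0 CPM against 310.0 and 409.9 CPM, a smaller log2 difference of -0.90 (SE 0.212).

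DCX and ELAVL4 were not called between these fractions. DCX was 569.6 and 631 CPM in the poor fraction and 494 and 585 CPM in the rich fraction, a log2 difference of 0.09 (SE 0.183). ELAVL4 was 457 and 532 CPM against 522 and 544 CPM, a log2 difference of -0.15 (SE 0.197). Of the 6 members 4 were called lower by edgeR, where 1742 of 11247 genes were lower. In either direction 25.1% of all genes were called. The split had been chosen after the pattern of these genes was seen, so these calls are no independent support. Without subcluster 4d, TUBB3 was 80.8 and 118 CPM in poor and 234 and 438 CPM in rich cells, and MLLT11 46.1 and 44.5 against 114 and 255 CPM. STMN2 was 692 and 767 against 1194 and 919 CPM, and DCX 563 and 647 against 537 and 650.4 CPM. There were 5.76 and 5.41 DCX UMI for every TUBB3 UMI in the poor fraction, and 0.885 and 0.663 in the rich fraction.

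The same 3 genes were lower in the ribosomal-poor fraction of noradrenergic cells, which took 4.23% and 6.88% of UMI from ribosomal protein genes against 12.1% and 13.9%. TUBB3 was 377 and 546 CPM against 820.2 and 922 CPM, a log2 difference of -1.14 (SE 0.207, edgeR adjusted p = 2.79e-05). STMN2 was 1371 and 2823 CPM against 4343 and 4673 CPM, a log2 difference of -1.35 (SE 0.215, edgeR adjusted p = 7.08e-06). MLLT11 was 313 and 662 CPM against 1062 and 932 CPM, a log2 difference of -1.26 (SE 0.259, edgeR adjusted p = 0.00076). The fractions did not overlap for any of the 3.

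DCX, ELAVL3 and ELAVL4 were not called there, with log2 differences of -0.29 (edgeR adjusted p = 0.390), -0.21 (edgeR adjusted p = 0.563) and -0.36 (edgeR adjusted p = 0.283). The background was 13.4% of genes called in either direction, with 1009 of 11247 genes called lower. Depth ran with the split in this class in replicate 1, at 5115.5 UMI in the poor fraction and 9464.5 UMI in the rich fraction, and was 6316 and 7329 UMI in replicate 2. Mitochondrial genes took 1.20% and 0.770% of UMI in the poor noradrenergic fraction, above the 0.593% and 0.593% of the rich fraction. The part of depth and mitochondrial share in these differences was not tested. At 2000 UMI per cell, TUBB3 was found in 57.1% of 35 and 56.1% of 41 poor noradrenergic cells and in 78.9% of 38 and 69.0% of 42 rich ones. DCX was found in 48.6% and 65.9% of the poor and 76.3% and 57.1% of the rich, so in replicate 1 its gap was larger than that of TUBB3 and in replicate 2 it ran the other way. In the ONECUT and EBF class TUBB3 was found in 13.5% of 74 and 23.7% of 76 cells of the poor fraction, against 41.9% of 62 and 57.1% of 70 of the rich fraction. DCX was found in 62.2% and 64.5% of the poor fraction and in 56.5% and 55.7% of the rich fraction.

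The drop of TUBB3 and MLLT11 was larger in the ONECUT and EBF class than in noradrenergic cells, by -1.64 (SE 0.315) and -2.26 (SE 0.443) on the log2 scale. Both were called by edgeR for this difference, as were 2.13% of genes, but the split had been chosen after these genes were seen to follow it, so this is no independent support. In replicate 1 alone these were -1.06 and -0.76, and in replicate 2 alone -2.07 and -3.28, so the sizes varied between libraries. STMN2, DCX, ELAVL3 and ELAVL4 were not called for this difference. In newborn cells, with 18 and 29 poor cells, no test was made. TUBB3 was 975 and 1521 CPM in poor and 1299.7 and 1299.9 CPM in rich newborn cells, and MLLT11 was 712 and 915 CPM against 773 and 794 CPM, so these groups overlapped.

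**Figure D3:**
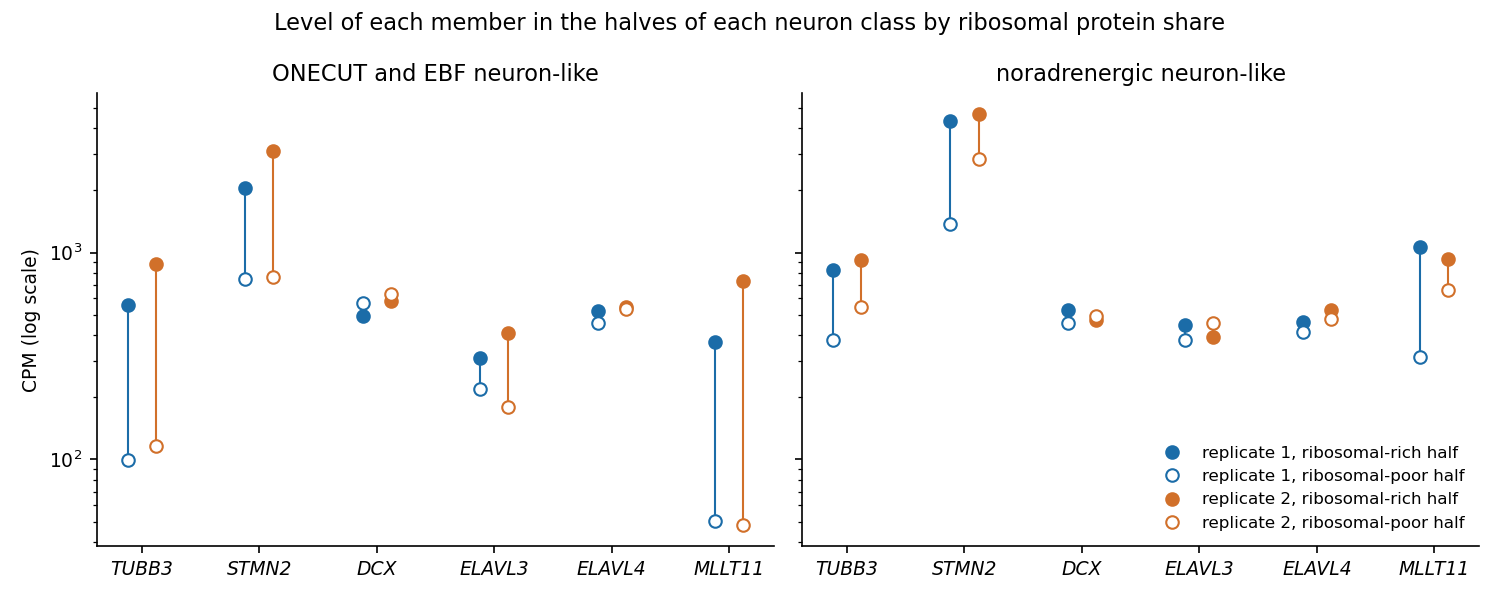
Level of each member (y axis, CPM on a log scale) in the ribosomal-rich (filled) and ribosomal-poor (open) fraction of 2 neuron classes, with lines joining the fractions of 1 library. TUBB3, STMN2 and MLLT11 drop in every library of both classes, whereas the DCX and ELAVL4 pairs stay close together.

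The fractions differed beyond the members. GFP, a transgene row in the deposited counts, was 194 and 193 CPM in the poor ONECUT and EBF fraction and 1556 and 1884 CPM in the rich fraction. In noradrenergic cells GFP was 980 and 1193 CPM against 2174 and 1947 CPM. Their part in the members' differences was not tested. The same split of progenitors gave smaller gaps. STMN2 was 75.0 and 66.3 CPM in the poor fraction and 98.2 and 109.3 CPM in the rich fraction, MLLT11 24.7 and 23.5 against 31.6 and 29.0 CPM, and TUBB3 42.3 and 45.7 against 43.6 and 55.8 CPM. ELAVL3 was higher in the poor fraction, at 129 and 127 CPM against 88.4 and 81.8 CPM. Fewer transcripts per cell and fewer expressing cells cannot be told apart from summed counts.

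Within single cells, thinned to 2000 UMI, neurons carried several members at once and progenitors few. Newborn cells held a mean of 4.38 and 4.31 of the 6 members, noradrenergic cells 3.95 and 4.00, and ONECUT and EBF cells 2.82 and 3.11. Progenitor cells held 0.587 and 0.605. At least 4 members were found in 48.1% of 243 neurons of replicate 1 (Clopper-Pearson interval 41.7 to 54.6%) and 53.0% of 287 of replicate 2 (47.0 to 58.9%). In progenitors it was 3 of 846 cells and 2 of 901. No member was found in 54.4% and 52.6% of progenitor cells and in 2.47% and 1.74% of neurons.

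**Figure D4:**
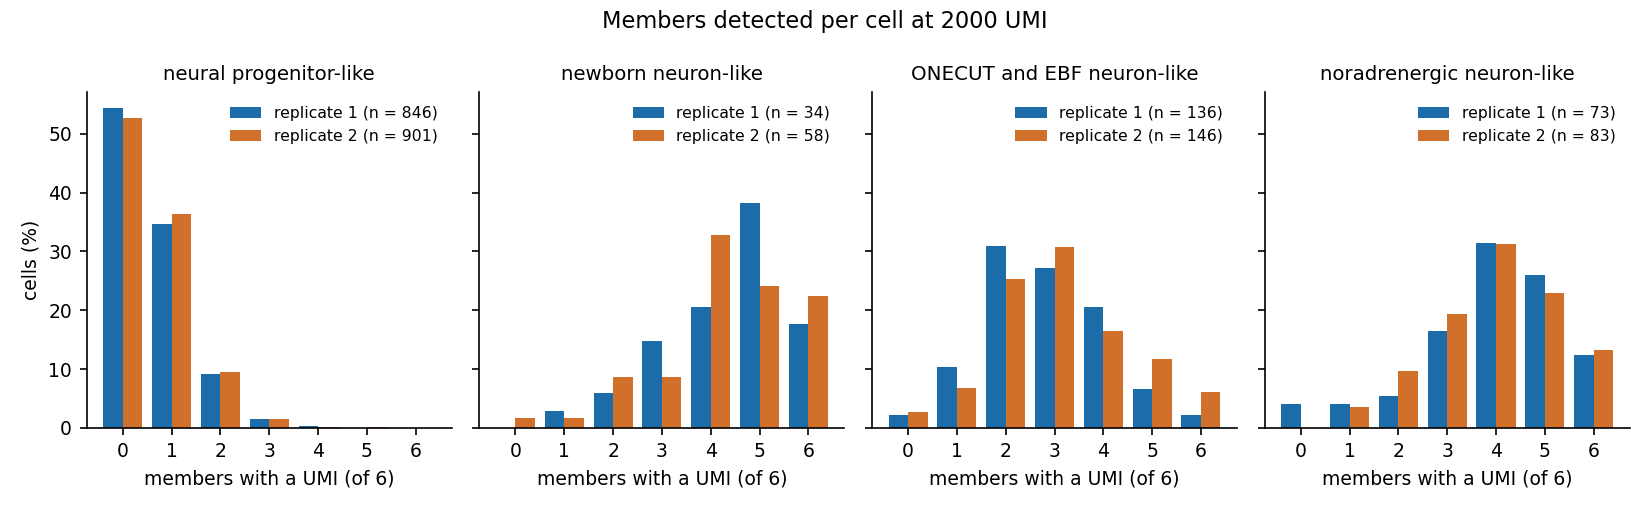
Share of cells (y axis, %) by number of members with a UMI (x axis, 0 to 6) after thinning to 2000 UMI, by class and library. Progenitor bars are tallest at 0, ONECUT and EBF bars at 2 or 3, and newborn and noradrenergic bars at 4 or 5.

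Most cells rich in members lay in the neuron classes, although the members had no part in the clustering. Of 145 cells with at least 4 members in replicate 1, 80.7% were in the 3 neuron classes, 8.97% in cluster 4c and 2.07% in progenitors. In replicate 2 it was 84.0%, 7.73% and 1.10% of 181 cells. Cluster 4c, led by PENK, SCG2 and TAC3, carried neuronal markers but was left unnamed. Its cells held a mean of 4.12 and 4.00 members, with TUBB3 at 992 and 1239 CPM. Another 10 of the 145 cells, and 0 in replicate 2, were in cluster 14, which came from replicate 1 except for 2 cells.

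Over all cells each of the 15 pairs was found together more often than the product of its shares in both libraries, with a median ratio of 2.09 and 2.38. Within the neurons as a whole the median ratio was 1.11 and 1.07, and 11 of 15 pairs were above 1 in both libraries. In progenitors the median was 1.12 and 1.10, with 6 of 15 pairs above 1 in both. The share of progenitor cells with no member, 54.4% and 52.6%, was close to the 53.6% and 52.6% given by the product of the single shares. At least 4 members were found in 0.355% and 0.222%, on 3 and 2 cells, above the 0.101% and 0.113% from the product. Before thinning, when depth varied between cells, the share with no member was 31.3% and 32.9%, above 27.9% and 29.0% from the product.

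The highest ratio to the product in neurons was that of TUBB3 and MLLT11, the members that dropped furthest in the ribosomal-poor ONECUT and EBF fraction. STMN2 was found in 84.4% and 84.3% of neurons, which leaves the ratios of its pairs little room above 1. The ratio therefore does not rank pairs by how strongly they are linked. Neurons with a TUBB3 UMI had a MLLT11 UMI in 61.4% of 114 and 65.2% of 155 cells, and neurons without one in 19.4% of 129 and 28.8% of 132. The ratio to the product was 1.57 and 1.35 in neurons and 1.75 and 1.66 within the ONECUT and EBF class, but 1.16 and 1.12 in noradrenergic and 1.16 and 1.09 in newborn cells. TUBB3 was found in 26.5% and 39.7% of ONECUT and EBF cells and in 68.5% and 62.7% of noradrenergic cells. The commoner a gene, the less room the ratio has above 1, so it does not rank the classes either. STMN2 also went with TUBB3: TUBB3 was found in 52.7% and 60.7% of neurons with a STMN2 UMI and in 15.8% and 17.8% of those without. MLLT11 went with STMN2 as well, at 44.4% and 54.5% against 10.5% and 15.6%. The Hu genes were not linked in this way. ELAVL4 was found in 50.4% and 60.1% of neurons with an ELAVL3 UMI and in 60.2% and 64.0% of those without. Their ratio to the product was 0.914 and 0.970, and that of DCX and ELAVL4 0.980 and 0.982, the 2 pairs under 1 in both libraries. These ratios within the pooled neurons also carry the differences between the 3 classes.

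Outside the neuron classes STMN2 reached levels the others did not. Cluster 16, led by RSPO2, RSPO3 and SPARCL1, held STMN2 at 640.2 and 698 CPM while TUBB3 was 61.1 and 73.4 CPM and ELAVL4 8.73 and 14.4 CPM. Cluster 1, led by SERPINA1, AHSG and ORM1, held STMN2 at 342 and 356 CPM and ELAVL4 at 16.8 and 18.6 CPM. In cluster 1 TUBB3, at 101.7 and 116.4 CPM, and MLLT11, at 62.2 and 63.1 CPM, were also above their progenitor levels. DCX, at 33.6 and 29.5 CPM, and ELAVL3, at 56.3 and 44.5 CPM, were below theirs. These clusters carried STMN2 several times above its progenitor level without a matching ELAVL4. Cluster 13, led by COL25A1, EDIL3 and CHRM3, was intermediate for most members, with ELAVL4 at 174 and 160.1 CPM and a mean of 1.18 and 1.36 members per cell.

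The wider list held 34 other cytoskeletal and 25 other RNA-binding genes, of which 33 and 25 were tested. In neurons against progenitors 31 cytoskeletal genes were higher and 1 lower, with a median log2 difference of 2.26 against -0.01 over all genes. Of the RNA-binding genes 18 were higher and 6 lower, with a median of 1.45, and 31.3% of all genes were called lower. The rises were led by the stathmin STMN4 at 7.19, the growth cone protein GAP43 at 6.59 and the neurofilament protein INA at 6.46. The falls were led by PTBP1, a repressor of neuronal exons, at -1.28, QKI at -1.10 and IGF2BP1 at -0.83. In newborn cells against progenitors 30 and 14 were higher and 0 and 4 lower, where 24.5% of all genes were lower. STMN4, GAP43 and INA led again, and KHDRBS2, PTBP1 and QKI, at -1.49, -1.08 and -0.77, led the falls. KHDRBS2 was -0.93 and -1.64 in single libraries. All of these are edgeR calls at adjusted p below 0.05.

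Between neuron classes the 2 lists differed in their counts. From newborn to ONECUT and EBF cells 16 cytoskeletal genes were lower and 2 higher, while 8 RNA-binding genes were higher and 0 lower by edgeR. Of all genes 17.8% were called higher and 13.7% lower. With 4d alone the lower calls of both lists fell from 16 to 5. The largest falls were NEFM at -1.98, NEFL at -1.95 and the tubulin-folding cofactor TBCB at -1.62. The largest rises were the splicing regulator KHDRBS2 at 4.22, the doublecortin-like kinase DCLK2 at 1.43 and the splicing regulator RBFOX1 at 1.29. In single libraries RBFOX1 was 2.33 and 0.61, and NEFL -1.01 and -2.31. From ONECUT and EBF to noradrenergic cells 17 cytoskeletal genes were higher and 7 lower, with 3 and 11 for the RNA-binding genes. Of all genes 15.8% were higher and 17.4% lower. With 4d alone the higher calls of both lists fell from 20 to 1. INA, TBCB and TUBB2A, a beta-tubulin, led the rises at 1.62, 1.44 and 1.36, and CELF2, NEFH and RBFOX3 the falls at -2.89, -2.15 and -1.95. The NEFH value rests on few counts, with fitted levels of 0.238 CPM in noradrenergic and 12.98 CPM in ONECUT and EBF cells, and was -1.004 and -2.32 in single libraries.

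Of the 58 listed genes tested, 17 were lower and 5 higher in the poor ONECUT and EBF fraction, where 1742 of 11247 genes were lower and 1078 higher. In the poor noradrenergic fraction 16 were lower and 3 higher, where 1009 genes were lower and 497 higher. In the ribosomal-poor fractions the tubulins and stathmins of the wider list went with TUBB3 and STMN2. Of the 17 listed genes lower in the poor ONECUT and EBF fraction and the 16 lower in the poor noradrenergic fraction, 13 were the same genes, 76.5% and 81.2% of each list. They were TUBA1A, TUBA1B, TUBB2A, TUBB2B, TUBB4A, TUBB4B, STMN1, STMN3, STMN4, GAP43, INA, DPYSL2 and TBCB. These are all cytoskeletal genes. The higher ones were PTBP2, DCLK1, CELF2, MAP6 and MSI2 in the ONECUT and EBF class and ELAVL2, DCLK2 and KHDRBS2 in noradrenergic cells. The overlap over all genes called lower was not counted, so the 13 shared genes have no background share beside them. The split was chosen after the members' pattern over the ONECUT and EBF subclusters had been seen, so this overlap is a description.

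The genes whose levels were most like the mean of the 6 members, over 36 sums from 18 units in 2 libraries, were the secretory granule gene SCG3 (Pearson r = 0.953), INA (0.940), the neuronal enolase gene ENO2 (0.920), NCAN (0.917) and CAMK2N2 (0.915). These sums share libraries and depth, so the values are descriptions. SCG3, and NSG1 and NCAM1 below, were also among the markers used to name the neuron classes, which favoured high values for them. Most like TUBB3 were CD24, ATAT1, a tubulin acetyltransferase, and INA, at 0.896, 0.884 and 0.882. Most like STMN2 were NSG1, PPP1R1A and IGFBPL1, at 0.924, 0.912 and 0.902. Most like DCX were CCSER1, the adhesion molecule NCAM1 and PBRM1, at 0.923, 0.918 and 0.916.

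For ELAVL3 they were the microtubule-associated MAP1A and MAP1B and the neurofilament NEFM, at 0.903, 0.902 and 0.883. For ELAVL4 they were NCAN, AKAP6 and SRRM3, at 0.915, 0.898 and 0.898, and for MLLT11 they were BASP1, ARHGDIG and RTN2, at 0.925, 0.902 and 0.896. No gene stood among the 3 nearest of more than 1 member. Between members the closest pair was TUBB3 and STMN2 (0.899) and the next MLLT11 and TUBB3 (0.864) and DCX and ELAVL4 (0.855), while ELAVL3 and MLLT11 were the least alike (0.621).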

How the data were processed

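The deposited values are whole UMI counts, not normalized, over 17846 genes and 4437 barcodes. The submitters' processing notes name Cell Ranger, bosTau9, Seurat 4.3.0 and R 4.1.2. The use of intronic reads is not stated. Barcode prefixes gave each cell its library. Cells with at least 500 genes and 1000 UMI were kept, and Scrublet removed 1 and 6 doublets, so doublets may remain. Cells were clustered with scanpy 1.11.5 (2000 variable genes, 30 components, Leiden resolution 1.0) without the 6 members, the wider lists and a random set of other genes (8855 held-out genes in all). The naming rule was set after clusters were seen. The members and lists were chosen with earlier results of these data known.

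Counts were summed per unit and library (18 units of at least 20 cells) and fitted with edgeR 4.0.16 (quasi-likelihood, TMM) with library as an additive term, since all units of a library share it, with 17 residual degrees of freedom. The p-values measure how differences between units varied between 2 libraries, which may be technical. The fit was tested on simulated data. Alternatives were other scalings, filters, all deposited barcodes, DESeq2, clusterings, class rules and thinning depths, and, added after the data were seen, limma-trend, subcluster 4d alone and the split of each neuron class by ribosomal protein share. Intervals cover counting error only. Named genes were the members, the 3 largest rises and falls of the wider list per comparison, the 5 genes most like the members' mean and the 3 most like each, and GFP. Genes leading a cluster and the listed genes of the ribosomal-poor and rich cells were named after their values were seen. Beta-tubulin genes are close copies, so reads could be split between them.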

Additional observations from a re-analysis of the deposited data

Results flagged for a closer look

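The drop of TUBB3 and MLLT11 in ribosomal-poor cells differed between the 2 neuron classes in the fitted difference of the log2 changes, ONECUT and EBF minus noradrenergic, in which 2.13% of 11247 genes were called by edgeR. It was -1.638 for TUBB3 (SE 0.315) and -2.263 for MLLT11 (SE 0.443). The split had been chosen after both genes were seen to be high in the ribosomal-rich subcluster 4d and low in 4f, so the call restates that pattern and is no independent support, and no p is given. Ribosomal protein genes took 1.10% of UMI in poor ONECUT and EBF cells of both libraries and 6.32% and 8.84% in rich ones, against 4.23% and 6.88%, and 12.1% and 13.9%, in noradrenergic cells. The part of these differing shares was not tested. TUBB3 was -2.07 without replicate 1 and -1.06 without replicate 2, and MLLT11 was -3.28 and -0.76, so leaving out replicate 2 moved both by more than 1.5 times. The other 4 members were not called for this difference.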

How the results depend on the processing

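In neurons and in newborn cells against progenitors all 6 members were higher under every alternative that gave a value. At Leiden resolution 1.6 no newborn class was found, so comparisons with it have no value there. For ONECUT and EBF against newborn cells 5 members were lower, against 2 with subcluster 4d alone and 0 (with 1 higher) when classes were set by marker UMI in each cell, which held 134 newborn, 175 ONECUT and EBF and 199 noradrenergic cells. For noradrenergic against ONECUT and EBF cells 4 were higher, against 2 with limma-trend, 0 with 4d alone and 0 (with 2 lower) with classes by marker UMI. The cause was not tested. Classes by marker UMI gave log2 differences of 0.000795 for STMN2, 0.71 for DCX (edgeR adjusted p = 0.0367) and 0.23 for ELAVL4 in the first comparison, and -0.19 for TUBB3 and -0.057 for ELAVL3 in the second, where TUBB3 was -0.43 with 4d alone. Uncalled values that changed sign were DCX at 0.12 with all deposited barcodes and from -0.21 to 0.017 leaving out each replicate in the first comparison, and ELAVL4 at 0.041, 0.17 and 0.11 at resolutions 0.6 and 1.6 and with all barcodes in the second. Without the library term (no replicate block) the members called were 6, 6, 5 and 4, as with it.

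Counts of the wider list that moved by over 1.5 times were as follows. From newborn to ONECUT and EBF cells 10 were higher, against 5 with limma-trend, and 16 lower, against 5 with 4d alone, 2 with classes by marker UMI and 9 with limma-trend. In noradrenergic against ONECUT and EBF cells 20 were higher, against 1, 3 and 9, and 18 lower, against 10 with 4d alone. In newborn cells against progenitors 4 were lower, against 1 with classes by marker UMI. Over all genes, classes by marker UMI called 1878 higher and 2233 lower (from 3746 and 3617) in neurons against progenitors, 1098 and 883 (from 3030 and 2824) in newborn cells against progenitors, and 906 and 1001 (from 2055 and 1587) in ONECUT and EBF against newborn cells. With 4d alone these were 356 and 297 in the last comparison and 321 and 336 (from 1819 and 2012) for noradrenergic cells. All deposited barcodes gave 2428 lower in ONECUT and EBF against newborn cells.

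Between ribosomal-poor and rich cells 4 members were called in the ONECUT and EBF class, 3 in the noradrenergic class and 2 for their difference, with the same counts under RLE, no filter, no replicate block and with ribosomal protein genes left out of the totals. Leaving out each replicate gave -0.016 to 0.25 for DCX in ONECUT and EBF cells and -0.48 to 0.039 for ELAVL3 in noradrenergic cells. For the difference it gave -1.23 to 0.49 for STMN2 and -1.34 to 0.043 for ELAVL3.

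The median share of neurons with a UMI of a member was 55.3% at 2000 UMI, 37.3% at 1000, 70.8% at 3000, 78.0% unthinned and 50.1% with classes by marker UMI. The share of neurons with at least 4 members was 50.6%, 22.0%, 71.0%, 74.8% and 46.8% in the same order. Leaving out each replicate gave 53.3 to 57.3% and 48.1 to 53.0%. The number of members found in a cell depended on this depth.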

Other observations

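ELAVL2, another neuronal Hu gene, is outside the 6 members and was ordered unlike TUBB3 over the ONECUT and EBF subclusters. It was lowest in the ribosomal-rich subcluster 4d, at 197 ± 33.6 CPM (n = 2), and highest in 4b, at 501 ± 49.8 CPM. TUBB3 was 959 ± 115 CPM in 4d and 127 ± 27.6 CPM in 4b. ELAVL4 was also highest in 4b, at 598 and 739 CPM in the 2 libraries. These values were picked after they had been seen and no test is given.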
